A study of Rattus norvegicus with 12 samples.

Results

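Transcripts for glucose uptake, glycogen turnover and lactate exchange were read in the CA1 region of the rat hippocampus for 9 of the 10411 named genes of the deposited table, on 13 of its 15923 probe sets. These are all the probe sets whose single gene symbol in the platform annotation is Slc2a1, Slc2a3, Slc16a1, Slc16a7, Ldha, Ldhb, Pygb, Gys1 or Hk1. Of the 13, 10 are ordinary probe sets and 3 are manufacturer's controls for the ends and middle of the hexokinase 1 transcript. The 12 arrays came from 12 young male Long-Evans rats, 3 to 4 months old, 1 Affymetrix RAE230A array per animal. In the 6 spatial learning rats a new water maze held orienting cues and a visible platform in a fixed place. For the 6 control task rats the visible platform moved between trials and informative cues were absent. Both groups had learned a standard water maze 2 to 3 weeks earlier, swam 8 trials spaced 8 minutes apart, and were killed directly after a 90-second probe trial given 1 hour after the last trial. Both groups thus had the same number and spacing of trials, and untrained animals are not analysed here. The comparison asks which CA1 transcripts differ when the session held a place that could be learned.

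Neurons and astrocytes divide the work of fuel supply in the brain. Glucose crosses the vessel wall and enters cells through transporters of the GLUT family, is trapped by hexokinase, and can be stored as glycogen, which in adult brain is kept mainly in astrocytes. In the astrocyte-neuron lactate shuttle model, astrocytes turn glucose or glycogen into lactate and release it through monocarboxylate transporters, and neurons take it up and oxidise it. Glycogen breakdown and lactate transport in the hippocampus have been linked to memory formation in rodents.

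All values are log2 probe set summaries made by the authors with GCRMA, a method that corrects for background by probe sequence and scales the arrays to like distributions. Levels of different probe sets are not set against each other, since each has its own probes, and differences are spatial learning minus control task. Correlations between any pair of arrays lay between 0.996 and 0.998, and 6 arrays per group limit the precision. The CA1 markers Wfs1, at 12.18 in the learning group and 11.89 in the control group, and Fibcd1, at 10.29 and 9.93, were bright on these arrays. So were the astrocyte marker Gfap, at 11.58 in the learning group and 11.56 in the control group, and the vessel marker Cldn5, at 9.45 and 9.35. Gfap is given for presence only, since 14 of the 17 tested astrocyte markers stood lower in the learning group, with a median difference of -0.10. The samples therefore held glia and vessels beside neurons, and in such bulk tissue fewer cells of a type and less RNA per cell cannot be told apart. Some arrays stood apart in other transcripts. Col1a1, a collagen of meninges, reached 6.84 in spatial learning replicate 6 and 6.67 in control task replicate 6, and Ttr, of the choroid plexus, reached 13.41 in control task replicate 3. Without these 3 arrays Slc2a1 differed by -0.09, the brighter Slc2a3 probe set by 0.07, Ldha by 0.09, Pygb by -0.08 and Hk1 by 0.01, and the other values stand beside their genes. Control task replicates 1 and 2, which stay in, also had a high mean of choroid plexus markers, at 6.58 and 7.03. The highest learning array had 6.05, and control task replicates 4 and 5 had 6.04 and 5.94.

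None of the energy supply transcripts passed the test between the learning and control groups. All 10 ordinary probe sets lay above the level of 4 at which probe sets entered the test, 5 of them higher and 5 lower after spatial learning, where 53.7% of all 9610 tested probe sets were higher. At a limma adjusted p of 0.05 the count was 0 of 10 (background 0%), with adjusted p from 0.429 to 0.948. At an unadjusted p under 0.05 it was 1 of 10, the dimmer Slc2a3 probe set on the lower side, where 10.9% of all tested probe sets were, 4.55% lower and 6.36% higher. The median difference was -0.01 over the 10 and 0.01 over all tested probe sets. In none of the 10 did the groups separate without overlap (background 0.635%). The size of the difference was under 0.2 in 9 of the 10, where it was so in 92.2% of all tested probe sets, and its median was 0.08 over the 10 and 0.06 over all.

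**Figure D1:**
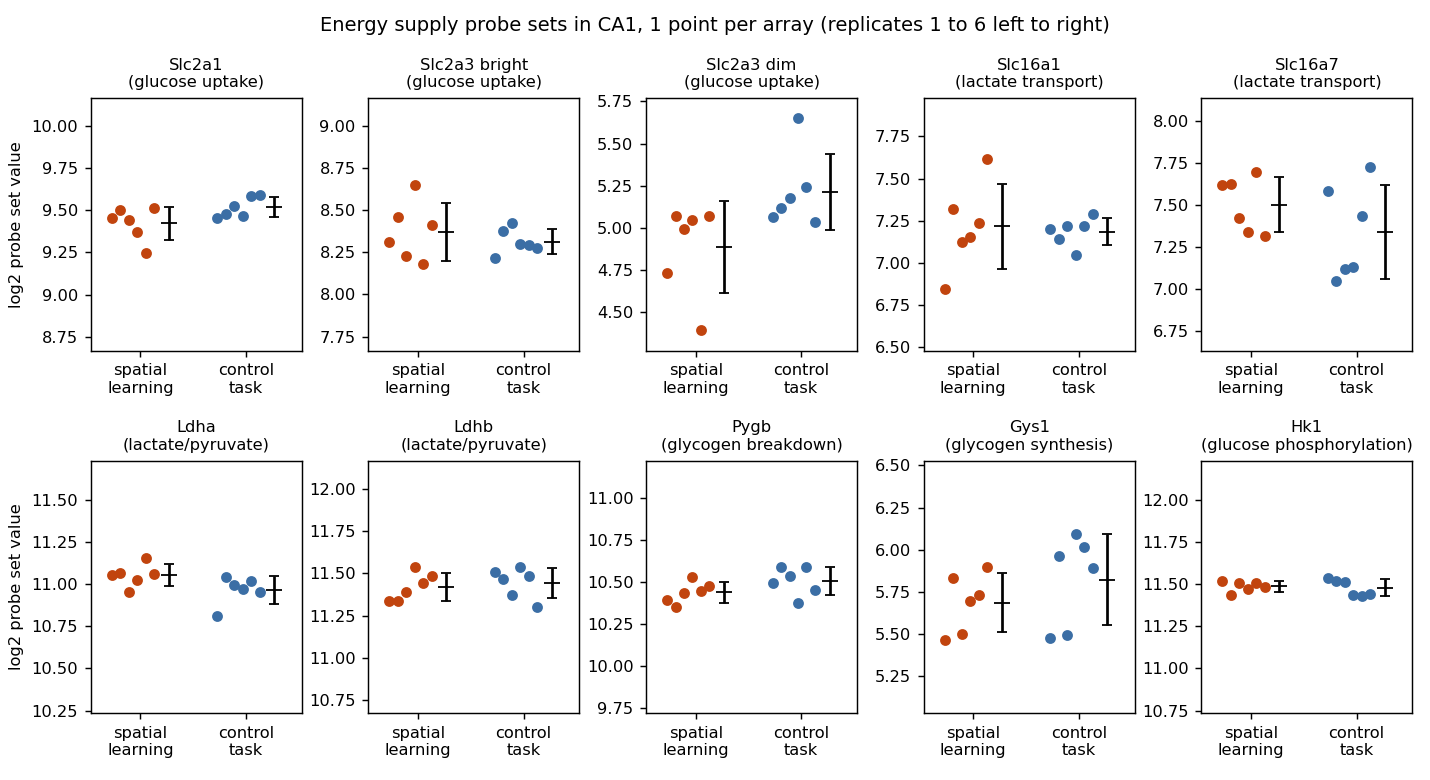
Log2 value of each of the 10 ordinary probe sets on each array, spatial learning (orange) left of control task (blue), with mean and SD of 6 arrays as bars; every panel spans the same height on the log2 scale. The groups overlap in every panel, the Hk1 points lie within 0.11 of each other, and the dimmer Slc2a3 probe set spreads over 1.26.

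Slc2a1 encodes GLUT1, the glucose transporter of brain endothelium and astrocytes. Its probe set 1370848_at ran from 9.24 to 9.52 with a median of 9.45 in the learning arrays, against 9.45 to 9.59 with a median of 9.50 in the control arrays. The control values lay close together, and 3 learning arrays fell under the lowest of them. The means were 9.42 ± 0.10 in learning and 9.52 ± 0.06 in control arrays (SD, n = 6 each), a difference of -0.10 with a 95% interval of -0.20 to 0.01 (limma adjusted p = 0.506). On a linear scale this is 0.936-fold. Learning replicate 5, the lowest array, set much of this gap, which was -0.06 without it. The difference was -0.11 without learning replicate 6 (limma unadjusted p = 0.0456, adjusted 0.461). With the hexokinase gap as a covariate it was -0.16 (limma unadjusted p = 0.0382, adjusted 0.774).

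Slc2a3 encodes GLUT3, the high-affinity glucose transporter of neurons, and has 2 probe sets whose differences had opposite signs, a gap that was not tested. The brighter one, 1372326_at, ran from 8.18 to 8.65 with a median of 8.36 in learning arrays, against 8.22 to 8.42 with a median of 8.30 in control arrays. Learning arrays lay both above and below the whole control range, and their SD was 0.17 against 0.07 in control arrays. The difference was 0.06 with a 95% interval of -0.10 to 0.22 (limma adjusted p = 0.806), and it was 0.0035 without learning replicate 4, the highest array. The dimmer one, 1387707_at, ran from 4.39 to 5.07 with a median of 5.02 in learning arrays, against 5.04 to 5.65 with a median of 5.15 in control arrays. All 6 learning arrays lay under the control median and 3 under every control array. Its means were 4.88 ± 0.27 and 5.21 ± 0.23 (SD, n = 6 each), a difference of -0.33 with a 95% interval of -0.61 to -0.05, or 0.796-fold. This was the only one of the 10 intervals that left out 0, and it did not pass after adjustment (limma adjusted p = 0.429). Within groups this probe set varied more than 91.1% of all tested probe sets, and the extremes were learning replicate 5 and control replicate 4. The difference was -0.23 without that learning array (limma unadjusted p = 0.05001) and -0.24 without that control array (limma unadjusted p = 0.0564), so its unadjusted p under 0.05 was lost without either. It was likewise lost without learning replicate 1, at -0.30 (limma unadjusted p = 0.0521), with the beta-actin and Gapdh gap as a covariate, at -0.31 (limma unadjusted p = 0.0556), and with the hexokinase gap as a covariate, at -0.38 (limma unadjusted p = 0.0672). Without the 3 arrays that stood apart it was -0.42 (limma adjusted p = 0.370). The values of the 2 Slc2a3 probe sets correlated across the 12 arrays with a Pearson r of 0.24 (permutation p = 0.426) and a Spearman rho of 0.38 (permutation p = 0.217), and r was 0.41 without the 2 arrays farthest from the median.

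**Figure D2:**
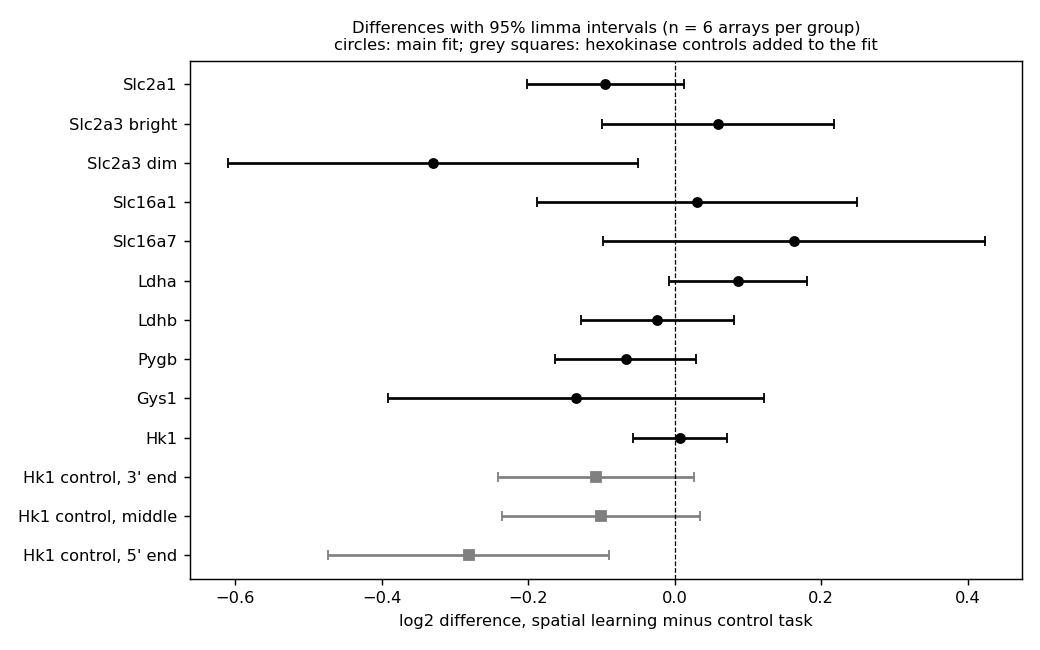
Difference between spatial learning and control task on the log2 scale for all 13 probe sets, with limma's 95% intervals; circles are the 10 ordinary probe sets and grey squares the 3 hexokinase controls, fitted when added to the tested probe sets. The dimmer Slc2a3 probe set, at -0.33, and the 5' hexokinase control, at -0.28, are the intervals that leave out 0.

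Hk1 encodes hexokinase 1, the main hexokinase of brain, which phosphorylates glucose at the mitochondrial surface. Its ordinary probe set, 1386929_at, was the steadiest of the 10: learning arrays ran from 11.43 to 11.52 with a median of 11.50, against 11.43 to 11.54 with a median of 11.48 in control arrays. The ranges nearly coincided, and only 2.64% of all tested probe sets varied less within groups. The difference was 0.01 with a 95% interval of -0.06 to 0.07 (limma adjusted p = 0.948). It was -0.00087, -0.0030 and -0.00059 without control replicate 4, 5 and 6.

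The 3 manufacturer's hexokinase controls, which read the same gene at its 3' end, middle and 5' end, all stood lower in the learning group, unlike the ordinary probe set. The 5' control ran from 7.03 to 7.34 with a median of 7.18 in learning arrays, against 7.19 to 7.70 with a median of 7.46 in control arrays. All 6 learning arrays lay under the control median and 3 under every control array. In a fit that also tested these controls, chosen after the data were seen, the 5' difference was -0.28 with a 95% interval of -0.47 to -0.09 (limma adjusted p = 0.386). The 3' control differed by -0.11 (limma adjusted p = 0.547) and the middle one by -0.10 (limma adjusted p = 0.580). The 3' minus 5' gap, a measure of how far labelling reached from the 3' end, averaged 1.65 ± 0.11 in learning and 1.48 ± 0.08 in control arrays (SD, n = 6 each; 2-sided exact permutation p = 0.00433, adjusted over 5 control measures 0.0216). The 3' minus middle gap was 2.47 in learning and 2.48 in control arrays (exact permutation p = 0.933). The Gapdh gap was 0.37 in both groups (exact permutation p = 0.998), and the beta-actin gap 1.93 in learning and 1.83 in control arrays (exact permutation p = 0.0779). The mean of 18 hybridisation control probe sets was 9.04 in learning and 8.92 in control arrays (exact permutation p = 0.0714). All 6 learning arrays lay above the control median of that mean. The part of RNA quality in the Hk1 controls was not tested.

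**Figure D3:**
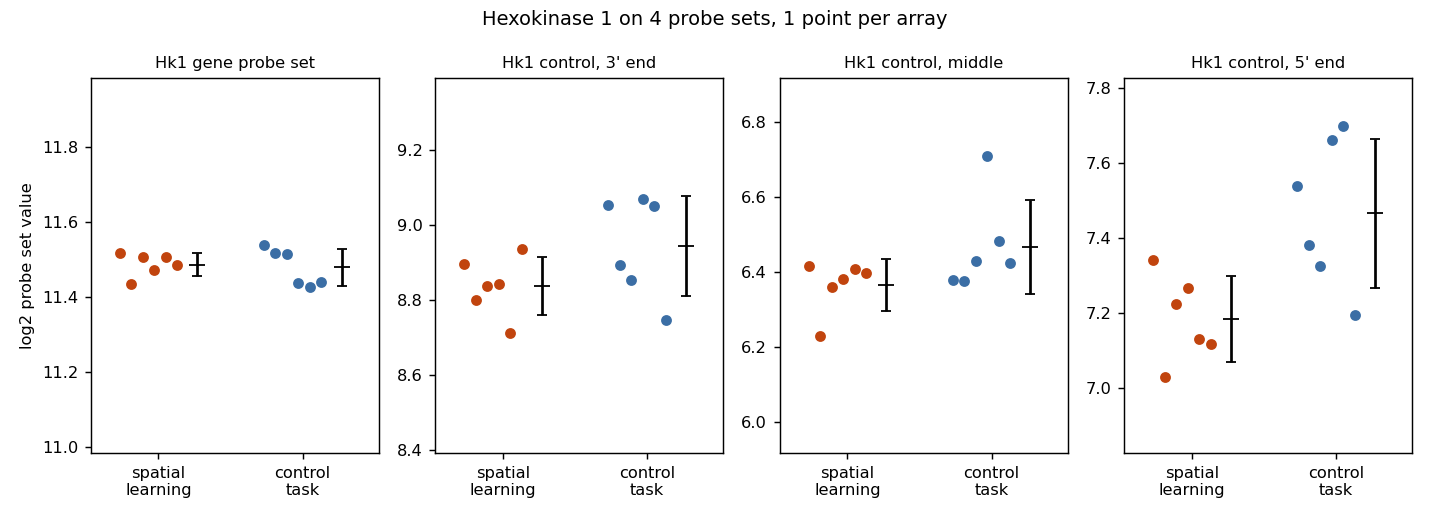
Log2 values of the 4 hexokinase 1 probe sets by array, spatial learning (orange) left of control task (blue), with mean and SD of 6 arrays, each panel spanning the same height. The ordinary probe set has group means of 11.49 and 11.48, while the 5' control has means of 7.18 in learning and 7.47 in control arrays.

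Pygb encodes brain glycogen phosphorylase, which releases glucose units from glycogen. Its probe set 1371625_at ran from 10.35 to 10.53 with a median of 10.44 in learning arrays, against 10.38 to 10.59 with a median of 10.51 in control arrays. Of the 6 learning arrays 5 lay under the control median, with wide overlap. The difference was -0.07 with a 95% interval of -0.16 to 0.03 (limma adjusted p = 0.607). Gys1, the glycogen synthase of muscle and brain that builds the polymer, varied within groups more than 88.3% of all tested probe sets. Its probe set 1374541_at ran from 5.47 to 5.90 with a median of 5.71 in learning arrays, against 5.48 to 6.09 with a median of 5.93 in control arrays. In the control group replicates 1 and 3 sat near 5.48 and the other 4 between 5.89 and 6.09, and all 6 learning arrays lay under the control median. The difference was -0.13 with a 95% interval of -0.39 to 0.12 (limma adjusted p = 0.711), moving between -0.20 without control replicate 1 and -0.08 without control replicate 4. It was -0.24 without the 3 arrays that stood apart (limma adjusted p = 0.474).

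Slc16a1 encodes MCT1, the monocarboxylate transporter of endothelium and glia. Its probe set 1386981_at ran from 6.84 to 7.61 with a median of 7.20 in learning arrays, against 7.05 to 7.29 with a median of 7.21 in control arrays. The learning arrays bracketed the whole control range, with replicate 1 lowest and replicate 6 highest. The difference was 0.03 with a 95% interval of -0.19 to 0.25 (limma adjusted p = 0.932), -0.05 without learning replicate 6 and -0.01 without the 3 arrays that stood apart. Learning replicate 6 and control replicate 6, the highest arrays of their groups here, were also highest in the list of meningeal and fibroblast markers. Of its 11 genes 7 were tested, 3 higher and 4 lower, and their mean ran from 6.00 to 7.27 in learning and from 6.05 to 7.45 in control arrays. Slc16a1 correlated with that mean across the 12 arrays with a Pearson r of 0.63 (permutation p = 0.0356) and a Spearman rho of 0.45 (permutation p = 0.147), of 36 member and marker list pairs computed after seeing the data (permutation p adjusted over them 0.468 and 0.590). Without those 2 arrays r was 0.20, so the relation rested on them, and the part of meningeal tissue in the Slc16a1 values was not tested.

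Slc16a7 encodes MCT2, the transporter through which neurons take up lactate. Its probe set 1370609_a_at ran from 7.32 to 7.70 with a median of 7.52 in learning arrays, against 7.05 to 7.72 with a median of 7.28 in control arrays. All 6 learning arrays lay above the control median, yet all lay within the control range. The means were 7.50 ± 0.16 and 7.34 ± 0.28 (SD, n = 6 each), a difference of 0.16 with a 95% interval of -0.10 to 0.42, or 1.12-fold (limma adjusted p = 0.656). It was 0.10 without control replicate 2, the lowest array, and 0.24 without control replicate 6, the highest. It was also 0.24 without the 3 arrays that stood apart (limma adjusted p = 0.458).

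Ldha and Ldhb encode the subunits of lactate dehydrogenase, which interconverts pyruvate and lactate. The Ldha subunit favours lactate formation and the Ldhb subunit, abundant in neurons, favours its use. Ldha on 1367586_at ran from 10.95 to 11.15 with a median of 11.06 in learning arrays, against 10.81 to 11.04 with a median of 10.98 in control arrays. Of the 6 learning arrays 4 lay above every control array. The means were 11.05 ± 0.07 and 10.97 ± 0.08 (SD, n = 6 each), a difference of 0.09 with a 95% interval of -0.01 to 0.18, or 1.06-fold (limma adjusted p = 0.489). It was 0.06 without control replicate 1, the lowest array, and 0.11 without learning replicate 3 (limma unadjusted p = 0.0302, adjusted 0.427). Ldhb on 1370218_at ran from 11.33 to 11.54 with a median of 11.42 in learning arrays, against 11.30 to 11.54 with a median of 11.47 in control arrays. These ranges nearly coincided, and the difference was -0.02 with a 95% interval of -0.13 to 0.08 (limma adjusted p = 0.887). It was -0.0059 without control replicate 4, -0.05 without control replicate 6 and -0.09 without the 3 arrays that stood apart (limma adjusted p = 0.465).

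Astrocyte markers stood mostly lower in the learning group, as did several other marker lists. Of the 17 tested genes of the 18 in that list, 14 were lower and 3 higher, with 4 of the lower ones at an unadjusted p under 0.05, where 10.02% of all tested genes had one, and 0 past the adjusted threshold. Among these lower ones Atp1b2 differed by -0.45 (limma unadjusted p = 0.0100) and Kcnj10 by -0.25 (limma unadjusted p = 0.0116), while Gfap differed by 0.02. The mean of the 17 ran from 10.34 to 10.48 in learning arrays and from 10.44 to 10.60 in control arrays, and all 17 lay above the level filter. Neuron markers were lower in 9 of 11 cases, microglia markers in 8 of 9 and oligodendrocyte markers in 8 of 10. Vessel markers were higher in 6 of 9 cases, and CA1 field markers in 6 of 6, with 3 of them at an unadjusted p under 0.05. Dentate gyrus markers were lower in 4 of 5 cases, markers of neighbouring regions in 3 of 4 and choroid plexus markers in 2 of 3. The choroid plexus mean ran from 5.70 to 6.05 in learning arrays and from 5.94 to 9.49 in control arrays. Ttr, of that list, differed by -3.33 (limma unadjusted p = 0.0138). CA3 field markers were split, 2 higher and 2 lower, as were blood markers, 1 and 1. Over all 6867 tested genes 55.6% were higher. The part of tissue composition in these counts was not tested. Over 12 arrays the astrocyte list mean had a Pearson r of 0.32 with Slc2a1, 0.61 with Pygb, 0.57 with Ldhb and -0.51 with Ldha. The r of the other member genes lay between -0.42 and 0.30. For the named genes, in that order, permutation p adjusted over 36 member and marker list pairs was 0.777, 0.468, 0.468 and 0.519. After each group's mean was subtracted their r were -0.10, 0.46, 0.66 and -0.22. How much astrocyte content contributed to the group differences of these genes was not tested.

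Slc2a1 and Ldha are textbook targets of the hypoxia-inducible factor HIF-1, which binds DNA at a core of ACGTG or GCGTG, whereas Ldhb is not known as one. The promoter windows of these 3 genes are shown as background. The Slc2a1 and Ldha differences, -0.10 and 0.09, did not pass the test here (limma adjusted p = 0.506 and 0.489). A link between the windows and these differences was not tested. The windows run from 250 bases before to 50 after the annotated start, 5′ to 3′ on the gene's strand, from RefSeq on GRCr8, where 8 of the 9 genes were matched. Capitals mark ACGTG and GCGTG on either strand, so CACGT and CACGC as well, and CACGTG counts as ACGTG on both strands.
Slc2a1, chr5:138002272-138002571, plus strand: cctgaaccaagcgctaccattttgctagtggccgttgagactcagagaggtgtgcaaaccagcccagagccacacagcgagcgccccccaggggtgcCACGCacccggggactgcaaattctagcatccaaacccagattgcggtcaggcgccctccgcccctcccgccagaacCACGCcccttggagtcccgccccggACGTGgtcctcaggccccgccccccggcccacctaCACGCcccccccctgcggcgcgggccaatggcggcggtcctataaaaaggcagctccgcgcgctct
Ldha, chr1:106507842-106508141, plus strand: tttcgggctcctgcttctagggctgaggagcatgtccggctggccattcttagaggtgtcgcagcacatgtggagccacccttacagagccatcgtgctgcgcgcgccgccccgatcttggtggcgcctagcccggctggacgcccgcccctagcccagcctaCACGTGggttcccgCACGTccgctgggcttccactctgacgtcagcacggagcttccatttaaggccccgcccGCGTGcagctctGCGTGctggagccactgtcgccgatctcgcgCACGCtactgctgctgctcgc
Ldhb, chr4:177177359-177177658, minus strand: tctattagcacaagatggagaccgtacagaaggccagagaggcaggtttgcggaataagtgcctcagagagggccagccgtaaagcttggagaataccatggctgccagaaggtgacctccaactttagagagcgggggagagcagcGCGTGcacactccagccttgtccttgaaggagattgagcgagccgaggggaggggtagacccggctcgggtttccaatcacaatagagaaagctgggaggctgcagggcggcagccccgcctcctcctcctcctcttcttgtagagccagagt
The Slc2a1 window held 1 match to ACGTG and 3 to GCGTG, and the Ldha window 3 of each, while the Ldhb window held 1 match to GCGTG. At least 1 match was present in 8 of the 9 windows of these genes, Hk1 having 2 windows, and in 41.6% of 33469 rat promoter windows of the same length. Those windows were not matched for base content, and G and C made up 46.7% to 72.7% of the member windows. Enrichment was therefore not tested. Among the 14 tested genes of the glucose sensing and hypoxia list 5 were higher and 9 lower, 1 of them at an unadjusted p under 0.05, with a median of -0.03 and 0 past the adjusted threshold. Epas1, a hypoxia-inducible factor subunit and the brightest of the list, stood at 11.03 in learning and 11.06 in control arrays, and its dimmer probe set differed by -0.11. Hif1a, the HIF-1 subunit gene itself, named after its values were seen, stood at 9.29 in learning and 9.45 in control arrays, a difference of -0.16 (limma adjusted p = 0.480). Prkaa1, a catalytic subunit of the energy sensor AMPK, differed by -0.17 (limma adjusted p = 0.437), and Ddit4, a stress-induced inhibitor of mTOR, by -0.21 (limma adjusted p = 0.473).

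The wider pathway lists likewise held no call. Of 100 genes in 6 lists, 57 were tested, 22 higher and 35 lower, where 55.6% of all 6867 tested genes were higher. The median was -0.02 over the 57 and 0.01 over all tested genes. An unadjusted p under 0.05 was found for 7 of the 57, or 12.3%, where 10.02% of all tested genes had one, and 0 passed after adjustment. Glycolysis enzymes were split, 6 higher and 5 lower of 11, with a median of 0.01. Pfkp, the platelet-type phosphofructokinase, had the smallest p, at 10.16 ± 0.07 in learning and 10.31 ± 0.08 in control arrays (SD, n = 6 each), a difference of -0.15 (limma adjusted p = 0.388). Pfkm, the muscle-type isoform, differed by 0.07 (limma adjusted p = 0.532) on its brighter probe set and by -0.08 on the other, and Aldoa, the brightest of the list, by -0.02.

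Other glycogen genes were lower in 9 of 11 cases and higher in 2, with a median of -0.04. Gaa, the lysosomal glycogen hydrolase, differed by -0.11 (limma adjusted p = 0.439) with 4 learning arrays under every control array, and Pgm2, a phosphoglucomutase family enzyme, by -0.16 (limma adjusted p = 0.447). Ugp2, which makes the UDP-glucose that feeds glycogen synthase, was the brightest and stood at 9.65 in both groups. Lactate and pyruvate genes were lower in 10 of 13 cases and higher in 3, with a median of -0.04. Pdk3, a kinase that switches off pyruvate dehydrogenase, differed by -0.26 (limma adjusted p = 0.437) and Dld, a subunit of that complex, by -0.18 (limma adjusted p = 0.458). Bsg, the chaperone that carries MCT1 to the membrane, was the brightest, at 11.20 in learning and 11.18 in control arrays. The astrocytic lactate exporter gene Slc16a3 lay under the level filter.

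Pentose phosphate genes, which divert glucose to NADPH and ribose, were higher in 5 of 6 cases, with a median of 0.05. Taldo1, transaldolase, stood at 9.66 ± 0.15 in learning and 9.48 ± 0.11 in control arrays (SD, n = 6 each), a difference of 0.18 (limma adjusted p = 0.429), and Pgls, a lactonase of the pathway, differed by 0.11 (limma adjusted p = 0.447). Of 11 further glucose transporters only 2 were tested, Slc2a13 at -0.01 (its dimmer probe set at -0.11) and Slc2a8 at 0.01. The insulin-sensitive transporter gene Slc2a4 lay under the level filter.

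**Figure D4:**
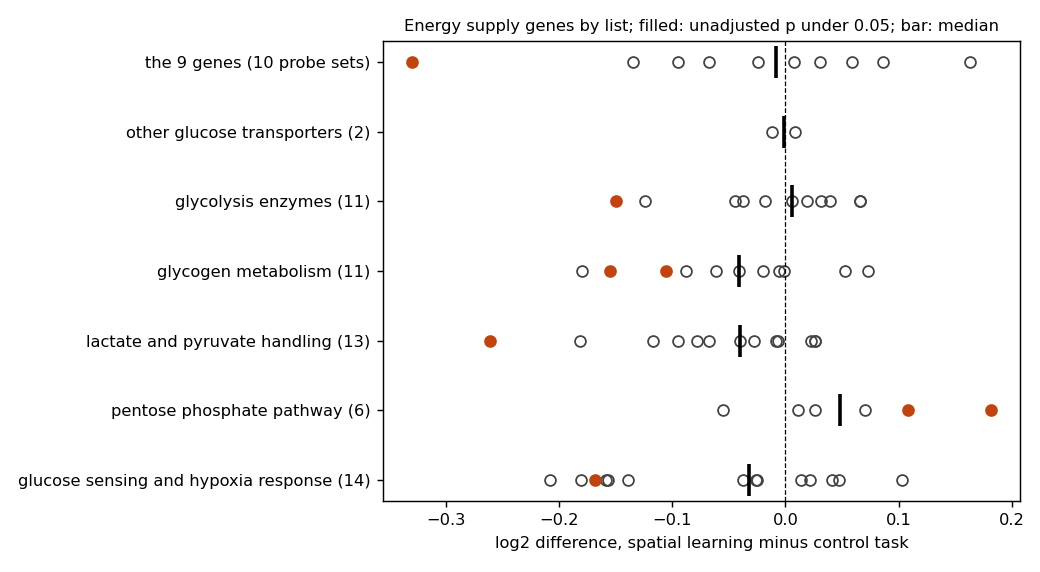
Log2 difference, spatial learning minus control task, for the 10 ordinary probe sets of the 9 genes and for each tested gene of 6 pathway lists; filled points have an unadjusted p under 0.05 and the bar is the median. The list medians lie between -0.04 and 0.05, and 0 points pass after adjustment.

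No pair of the 9 genes passed a test of covariation from animal to animal. Over the 36 pairs of genes, each taken by its brightest probe set, Pearson r across the 12 arrays ran from -0.72 to 0.39 with a median of 0.06, and 0 pairs passed after adjustment for 36 pairs (1 at an unadjusted p under 0.05, by Pearson and by Spearman alike). That pair was Gys1 and Hk1, at a Pearson r of -0.72 (permutation p = 0.0112, adjusted 0.403) and a Spearman rho of -0.62 (permutation p = 0.0365, adjusted 0.870). Arrays with more Gys1 signal had less Hk1 signal in both groups, at r = -0.66 in learning arrays (exact permutation p = 0.161) and -0.76 in control arrays (exact permutation p = 0.111). Without the 2 arrays farthest from the median of Gys1 in each group these became -0.26 in learning and -0.25 in control arrays. Those values rest on the few arrays left in each group, over a narrower Gys1 range, and are imprecise. Over the 12 arrays r was -0.64 without the 2 arrays farthest from the median of Gys1. Hk1 spans only 0.11 on the log2 scale over all arrays. The glucose transporters Slc2a1 and Slc2a3 correlated at 0.07, the lactate transporters Slc16a1 and Slc16a7 at 0.02, and Ldha and Ldhb at -0.16.

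In 2 of the 36 pairs, Ldhb with Pygb and Slc16a1 with Gys1, both genes held the same order in all 6 learning arrays and not in the control arrays. Within the learning group the Ldhb and Pygb Pearson r was 0.96 (exact permutation p = 0.00139) and Spearman rho 1.0 (exact permutation p = 0.00278), both with a permutation p adjusted over the 36 pairs of 0.05, which is at the threshold and not past it, and r was 0.97 without the 2 arrays farthest from the median. Within the control group r was -0.06 (exact permutation p = 0.894) and rho -0.26 (exact permutation p = 0.658). Over all 12 arrays r was 0.39 (permutation p = 0.213) and rho 0.27 (permutation p = 0.404). That order rests on narrow ranges, 11.33 to 11.54 for Ldhb and 10.35 to 10.53 for Pygb in learning arrays. Slc16a1 and Gys1 had an r of 0.90 (exact permutation p = 0.00278) and a rho of 1.0 (exact permutation p = 0.00278) in learning arrays, both with a permutation p of 0.05 adjusted over the 36 pairs, and r was 0.89 without the 2 farthest arrays. In control arrays their r was -0.42 (exact permutation p = 0.428) and rho -0.49 (exact permutation p = 0.356), and over all 12 arrays r was 0.31 (permutation p = 0.353) and rho 0.19 (permutation p = 0.559). With 6 arrays the smallest exact permutation p that can be reached is 0.00139 by Pearson and 0.00278 by Spearman. Adjusted over 36 pairs, a lone pair therefore could not fall under 0.05 in either group. This adjustment counts the pairs within 1 group only. The same pairs were also tested in the other group and over all 12 arrays, so it understates the number of tests. The r of 0.97 and 0.89 rest on the few arrays left after 2 of 6 were taken out, and say little. The differences between the groups' correlations were not tested.

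**Figure D5:**
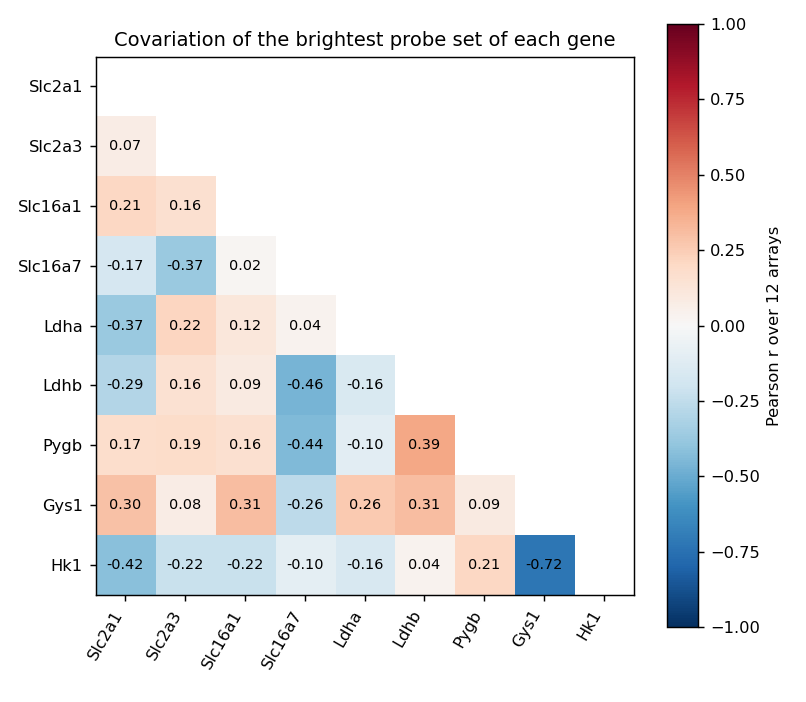
Pearson r between the brightest probe sets of the 9 genes across the 12 arrays, both groups together, from -1 (blue) to 1 (red). The pair of Gys1 and Hk1, at -0.72, is the strongest, and the highest positive value is 0.39 for Ldhb and Pygb.

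Among 6866 other genes, ranked by Pearson r over the 12 arrays after each group's mean was subtracted, the patterns most like these 9 were found in the genes that follow, as a description without a test. Closest to Slc2a1 were Ebag9 (r = 0.94) and Ginm1 (0.93), and to the brighter Slc2a3 probe set Dut (0.91) and Klhl9 (0.89). Slc16a1 was followed most closely by Tagln2 (0.90) and Sod3 (0.88), and Slc16a7 by Asxl2 (0.87) and Rims2 (0.85). For Ldha they were Thra (0.92) and Taf1c (0.85), and for Ldhb Dpy19l1 (0.89) and Hapln2 (0.88). For Pygb they were Tollip (0.89) and Cenpx (0.86), for Gys1 Cops9 (0.84) and Ncaph2 (0.82), and for Hk1 Nup58 (0.89) and Nr2f1 (0.88). None of these 18 nearest genes was another of the 9. With so few members among 6866 genes, this says little about whether the 9 vary together.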

How the data were processed

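Each of 12 arrays (Affymetrix RAE230A) held CA1 RNA of 1 rat, 6 arrays per group. Groups and replicate numbers come from the sample titles, which name biological replicates. The deposited values are log2 summaries per probe set, made with GCRMA per the submitters' processing notes (version and settings: not given in the sources used here). The log2 scale was read from the range, 0.134 to 14.8. GCRMA equalises the arrays, so a change in total RNA cannot be seen, and it compresses dim differences. No batch was tested, since no scan date is given.

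Probe sets were named through the supplied platform annotation: of 15866 that are no controls, 12783 have 1 symbol, 312 several and 2771 none here. For 12748 the Entrez identifier was found in the GRCr8 gene table, with 0 symbols differing. The 9610 probe sets with a mean of at least 4 over all arrays were fitted with limma 3.58.1 in R 4.3.3, using 1 group term and an intensity trend. P-values are 2-sided and adjusted over all 9610 by Benjamini-Hochberg. The fit was tested on simulated data. Permutation tests were exact over 924 splits for group differences and used 100000 resamples for correlations over 12 arrays. In lists each gene entered by its brightest tested probe set. Named genes are all members, the 2 genes of smallest p and the brightest of each pathway list, and the 2 nearest genes by correlation. Some of a fixed set of markers are named too, with a few further genes for context. Members, lists and rules were chosen with earlier results of these data known. Alternatives were the filter, variance model, array weights, scaling, covariates, a rank-sum test, a replicate block and leaving out each array. Same-numbered arrays did not deviate together (correlations from -0.17 to 0.08), so the arrays were not treated as pairs.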

Additional observations from a re-analysis of the deposited data

Results flagged for a closer look

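In 4 of 36 groups of 6 values searched for a single array far from the others, such an array was found, where chance gives about 1 group in 20. Control task replicate 4 stood highest of its group in the dimmer Slc2a3 probe set, at 5.65 against 5.24 for the next array, and in the middle hexokinase control, at 6.71 against 6.48. Spatial learning replicate 2 stood lowest of its group in the middle hexokinase control, at 6.23 against 6.36. Spatial learning replicate 5 stood lowest of its group in the Gapdh 3' minus 5' gap, at 0.21 against 0.37, and the same array was lowest in Slc2a1 and in the dimmer Slc2a3 probe set.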

How the results depend on the processing

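None of the 10 probe sets passed under any of 25 alternatives (lowest adjusted p 0.348), and 7 of them kept their direction in all 25. The exceptions were Slc16a1, Ldhb and Hk1. Slc16a1 was -0.0025 with the beta-actin and Gapdh gap as a covariate, -0.22 with the hexokinase gap as a covariate and -0.014 without the 3 arrays that stood apart, the last 2 chosen after seeing the data, and ran from -0.049 to 0.11 with 1 array left out. Ldhb was 0.017 with the hexokinase gap as a covariate. Hk1 was -0.010 with array weights and -0.0067 with the beta-actin and Gapdh gap, and ran from -0.0030 to 0.019 with 1 array left out. Over all probe sets, 3 passed with array weights, from 0 to 3 with 1 array left out (3 without control task replicate 6) and 5 without the 3 arrays. The hexokinase gap as a covariate left 605 at an unadjusted p under 0.05, against 1048. Leaving out 1 array gave from 779 to 1146. The hexokinase gap itself differed between the groups. With it as a covariate the standard errors of all 10 rose, for Ldha from 0.044 to 0.064. The fit with the replicate number as a block called 0, left 769 at an unadjusted p under 0.05 and changed no call of the 10. The causes were not tested. With values less group means, within each group, after median centring and without the 3 arrays, 0 gene pairs passed after adjustment. Within a group of 6 arrays a lone pair could not have passed.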

Other observations

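The correlations among the 4 hexokinase probe sets differed between the groups in size and sign, with no test of that difference. Over the 12 arrays the 3' and 5' controls had a Pearson r of 0.84 (permutation p = 0.00078, adjusted over 7 same-gene pairs 0.00546) and a Spearman rho of 0.74 (permutation p = 0.00822, adjusted 0.0575), and r was 0.75 without the 2 arrays farthest from the median and 0.81 after each group's mean was subtracted. Within groups r was 0.36 in learning and 0.96 in control arrays. The ordinary probe set correlated at -0.06 with the 3' control, -0.08 with the 5' control and -0.26 with the middle one (permutation p = 0.851, 0.789 and 0.463) over the 12 arrays. Within the learning arrays these values were 0.07, 0.66 and 0.85, and within the control arrays -0.05, -0.27 and -0.62.

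Of the 36 pairs of a member and a marker list, 0 passed after adjustment, by Pearson or by Spearman. After Slc16a1 with the meningeal list, the next by Pearson was Pygb with the astrocyte list, at a Pearson r of 0.61 (permutation p = 0.0369, adjusted 0.468) and a Spearman rho of 0.51 (permutation p = 0.0932, adjusted 0.587), which became r = 0.32 without the 2 arrays farthest from the median of the astrocyte list. Slc16a7 with the neuron list had a Pearson r of -0.58 (permutation p = 0.0505, adjusted 0.468). That r was -0.29 without the 2 arrays farthest from the neuron list's median. By Spearman the strongest were Slc2a1 with the meningeal list, at a rho of 0.62 (permutation p = 0.0349, adjusted 0.587) and a Pearson r of 0.50 (permutation p = 0.105, adjusted 0.541), and the brighter Slc2a3 probe set with the neuron list, at a rho of 0.59 (permutation p = 0.0450, adjusted 0.587) and a Pearson r of 0.35 (permutation p = 0.261, adjusted 0.777). Without the 2 arrays farthest from the list's median their r was 0.40 and 0.46.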
